A study of Macaca mulatta with 12 samples.

Results

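The genes described here are the chromatin modifiers and remodelers whose transcripts were read on a rhesus expression array (Affymetrix) in dorsal raphe tissue. The dorsal raphe lies in the midbrain and is a main source of serotonin fibres to the forebrain. They were chosen by symbol: every gene whose symbol in the probe-to-gene table starts with KDM, KMT, KAT, HDAC, SIRT, SMARC, CHD, ARID, DNMT, EZH, SETD, BRD or ING, together with TET1 to TET3, SUZ12 and EED. This gave 98 genes on 222 probe sets, among 14132 genes on 24956 probe sets that the table names by 1 symbol. A probe set is the group of short probes from which the array reads 1 transcript, and 171 of the 222, for 88 genes, were bright enough to be tested. Tissue came from 12 female rhesus monkeys, 1 array each, in 4 groups of 3. For 1 month they carried Silastic capsules under the skin, with estrogen, with estrogen plus progesterone, with progesterone, or as placebo. OVX stands in the titles of the placebo group alone and was taken to mean ovariectomized; the titles of the hormone groups do not mention that state. The progesterone arrays have the code EP in their titles and P in their descriptions, and were taken as progesterone alone. The labels describe the sample as a block of the dorsal raphe, so it holds glia and vessels as well as neurons, and in such bulk RNA fewer cells of a type and less RNA per cell cannot be told apart.

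DNA in the nucleus is wound around histone proteins, and enzymes that add or remove small chemical groups on histones or DNA set how open each stretch is to transcription. Writers add the marks (histone methyltransferases of the KMT and SETD families, acetyltransferases of the KAT family, DNA methyltransferases and the Polycomb repressive complex around EZH, SUZ12 and EED). Erasers remove them (KDM demethylases, HDAC and sirtuin deacetylases, TET enzymes), and readers such as the bromodomain and ING proteins bind them. The class called remodelers takes in the SMARC, CHD and ARID families by symbol. Many of its members move nucleosomes or belong to complexes that do, but not all, such as ARID4B of the SIN3 deacetylase complex. Estrogen and progesterone receptors act through many of these proteins as coactivators and corepressors. The roles given below are those known from human and mouse work.

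By role, the 98 genes were 29 writers on 74 probe sets (46 tested), 31 erasers on 62 (52 tested), 11 readers on 23 (19 tested) and 27 remodelers on 63 (54 tested). The remaining 10 genes had no probe set with a mean log2 intensity of 6.31 or more over the 12 arrays, the limit for testing. They were DNMT3B, DNMT3L, EZHIP, KMT5C, KDM6B, TET1, ARID3C, ARID5A, CHD2 and SMARCAL1, and their mean log2 intensity ran from 2.77 on the DNMT3L probe set to 6.27 on that of CHD2. The lack of a test says nothing about whether these genes are expressed, since the brightness of a probe set also depends on its probes.

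Array medians lay between 71.1 and 98.6 intensity units, and rank correlations between arrays between 0.863 and 0.954. On the first principal component of all probe sets (23.5% of the variance) the first estrogen, first estrogen plus progesterone and first placebo arrays stood apart from the other 9, and on the second (17.2%) all 3 progesterone arrays did. For the control transcript EF1A the log2 signal at the 3′ end less that at the 5′ end was -0.37 to -0.31 with progesterone alone, against -0.08 to 0.74 on the other 9 arrays. For actin it was 0.66 to 1.23 with progesterone alone and 0.11 to 0.90 on the other arrays, and for GAPDH -0.09 to 0.39 and 0.11 to 0.89, with overlap in both. Of 9 serotonin neuron markers, 7 were on the array by name, SLC6A4 and DDC were not, and 6 were bright enough to be tested. The summed intensity of all 7 was 2210 to 2854 in progesterone and 2870 to 4120 in placebo animals. It was 3053 to 4436 in estrogen animals and 2911 to 3668 in estrogen plus progesterone animals. General neuron markers summed to 9435 to 12620 with progesterone, 13420 to 13830 with estrogen, 13060 to 14030 with both and 12120 to 12260 with placebo. In that list and those of astrocytes, oligodendrocytes, microglia, endothelium, ependyma and choroid plexus, and cerebellar neurons, the progesterone and placebo ranges overlapped. The part of RNA quality, of tissue makeup and of the arrays that stood apart in the results below was not tested beyond leaving those 3 arrays out.

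With limma fitted across all 26383 tested probe sets, 0 of the 171 chromatin probe sets passed an adjusted p of 0.05 in any of the 9 tests. In estrogen against placebo and in estrogen plus progesterone against placebo the same was true of the whole array (0% called in each). In progesterone against placebo 0.133% of all probe sets were called, in estrogen plus progesterone against progesterone 0.0834% and in the F test over the 4 groups 0.0758%, while estrogen plus progesterone against estrogen, both main effects and the interaction called 0%. The 2 chromatin genes nearest to the threshold were KMT2A, a writer with an adjusted p of 0.0565 in progesterone against placebo, and SIRT6, an eraser with 0.112 in estrogen plus progesterone against progesterone. This SIRT6 probe set reached the limit for testing only through the arrays with estrogen, so its value is a description. The 95% confidence interval of a difference between 2 groups reached a median of 0.47 log2 units to each side for chromatin probe sets, against 0.49 over all probe sets. With 3 animals per group, smaller differences are thus unresolved. This interval is for 1 probe set and is not adjusted for the number tested. Larger differences were not called either, such as KMT2A at 1.55 and BRD2 at 1.09 in progesterone against placebo.

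Counts at an unadjusted p of 0.05 show where the members' lowest p-values lay, beside the same share of all probe sets. In estrogen against placebo 2 chromatin probe sets were higher and 1 lower (1.17% and 0.585%, against 1.25% and 1.39% of all). In estrogen plus progesterone against placebo 3 were higher and 3 lower (1.75% each, against 1.84% and 2.01%). The higher ones in both comparisons include the SIRT6 probe set that was tested only because of the arrays with estrogen. The 1 lower in estrogen against placebo was of DNMT3A, tested only because of the placebo arrays. With progesterone against placebo, 15 probe sets of 11 genes were higher and 6 of 6 genes lower (8.77% and 3.51%, against 4.74% and 5.14%). Without the 3 arrays that stood apart these last counts were 14 and 9 (8.19% and 5.26%, against 4.46% and 4.93% of all). The count of 15 includes several probe sets of KMT2A, CHD9 and BRD2. It also includes 1 of CHD9 and 1 of KDM5A that reached the limit for testing only through the progesterone arrays. With 1 probe set per gene, the brightest, 5 of 88 were higher and 2 lower (5.68% and 2.27%, against 4.11% and 6.22% of all).

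Median differences were close to 0. Over the 171 probe sets the median log2 difference was 0.05 in estrogen, 0.05 in estrogen plus progesterone and 0.01 in progesterone animals, each against placebo, where the medians of all tested probe sets were -0.01, -0.01 and -0.02. By role, the median in progesterone against placebo was -0.04 for writers, 0.01 for erasers, -0.07 for readers and 0.02 for remodelers. These small values depend on scaling: with arrays aligned only by their medians the progesterone difference of all probe sets was -0.12 and that of the chromatin probe sets -0.11. The share of chromatin probe sets higher in progesterone animals was then 39.8%, against 52.0% after quantile normalization. Over all tested probe sets the share moved the same way, to 32.7% from 46.7%.

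**Figure D1:**
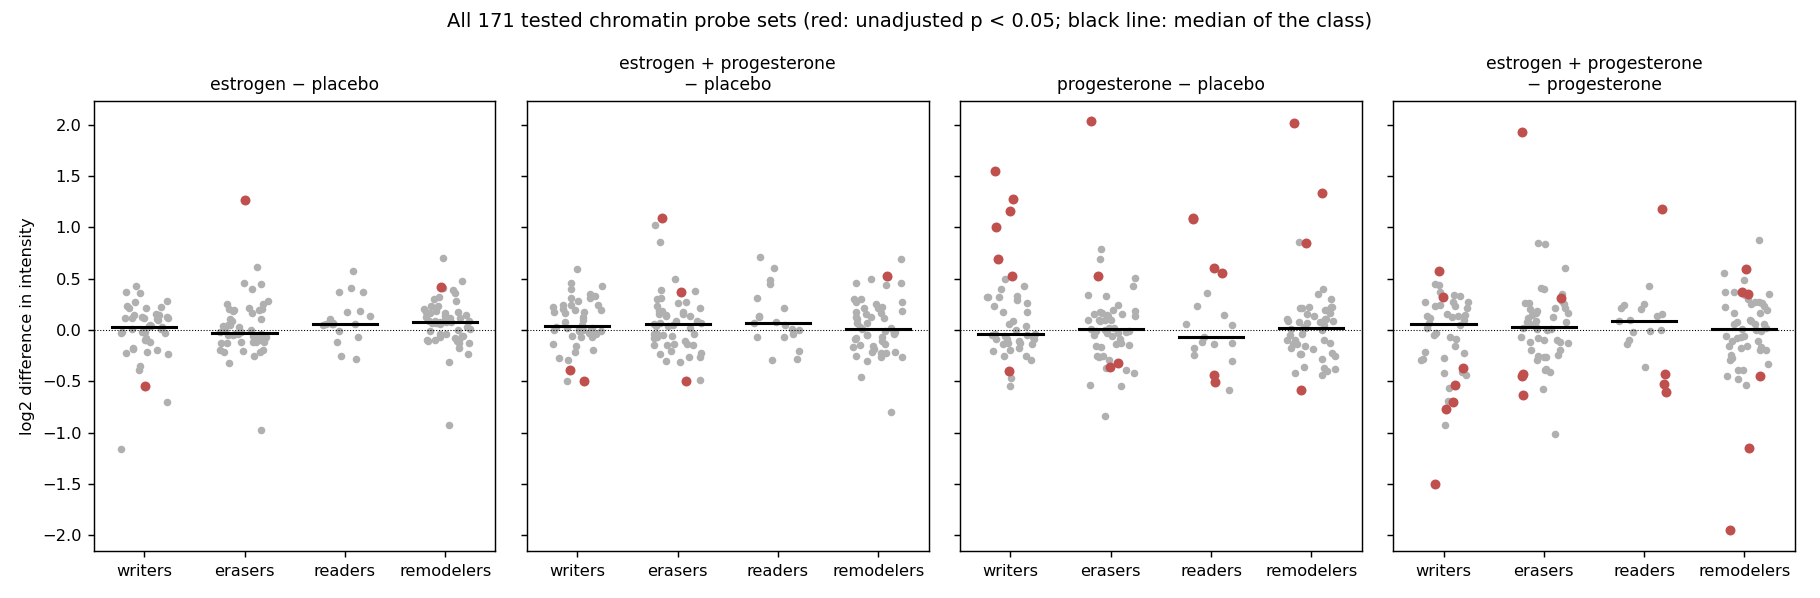
Log2 difference in intensity (vertical axis) of the 171 tested chromatin probe sets in 4 comparisons, split into writers, erasers, readers and remodelers; each point is 1 probe set, red points have an unadjusted p under 0.05 and black lines are class medians. Most points lie close to 0, and the points farthest from it in progesterone against placebo are KDM5A at 2.04, CHD9 at 2.02 and KMT2A at 1.55.

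SIRT6 is a sirtuin, an NAD-dependent enzyme that deacetylates histone H3 and is known for roles in DNA repair, telomere chromatin and glucose metabolism. On its first probe set (MmuSTS.3821.1.S1_at) the log2 intensity was 7.69, 7.45 and 7.53 in estrogen animals, 7.05, 7.15 and 7.95 in estrogen plus progesterone animals, 5.68, 5.51 and 5.17 in progesterone animals and 5.92, 5.62 and 7.33 in placebo animals. All 6 arrays with estrogen lay above all 3 progesterone arrays and above the first and second placebo arrays. The third placebo array, at 7.33, lay above 2 of the 3 estrogen plus progesterone arrays, and the groups of estrogen and placebo did not overlap, whereas those of estrogen plus progesterone and placebo did. The 6 arrays without estrogen averaged 5.87, below the limit of 6.31, so the probe set was tested only because of the arrays with estrogen. Its differences between arrays with and without estrogen are therefore given as a description.

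The difference in SIRT6 was 1.93 ± 0.39 log2 units (SE, 3.81-fold, 95% interval 1.09 to 2.77) in estrogen plus progesterone against progesterone, with an adjusted p of 0.112. It was 1.27 (0.42 to 2.11, adjusted p = 0.9997) in estrogen against placebo and 1.09 (0.25 to 1.93, adjusted p = 0.9988) in estrogen plus progesterone against placebo. In progesterone against placebo it was -0.84 (-1.68 to 0.01, adjusted p = 0.508), with overlapping groups. Averaged over both progesterone levels, the 6 arrays with estrogen exceeded the 6 without by 1.60 ± 0.27 (1.0 to 2.19), with an adjusted p of 0.199.

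The adjusted p of SIRT6 depended on the third placebo array. In estrogen plus progesterone against progesterone that array enters only through the shared estimate of the spread. The probe set was tested only because of the arrays with estrogen, so the adjusted p-values below are a description. Without the third placebo array the difference in estrogen plus progesterone against progesterone was 1.93 with an adjusted p of 0.0212, and that between arrays with and without estrogen 1.86 with an adjusted p of 0.0216. With all arrays kept, neither passed. Without the 3 arrays that stood apart on the first component the 2 values were 2.10 (adjusted p = 0.127) and 1.56 (0.319).

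A second SIRT6 probe set (MmugDNA.30336.1.S1_at) did not show the same order. Its log2 intensity was 8.59, 7.90 and 7.92 in estrogen animals, 7.68, 7.47 and 8.11 in estrogen plus progesterone animals, 7.72, 7.95 and 7.90 in progesterone animals and 6.87, 8.14 and 7.56 in placebo animals. Here the progesterone arrays lay inside the range of the arrays with estrogen, and the difference from placebo was 0.61 in estrogen and 0.33 in progesterone animals. Over the 12 arrays the correlation between both SIRT6 probe sets was 0.24, a description only, since they share the arrays and their groups.

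The other sirtuins measured were SIRT1, a nuclear deacetylase, SIRT4 and SIRT5, which act in mitochondria, and SIRT7 of the nucleolus. In estrogen plus progesterone against progesterone SIRT1 was lower by 0.44 on the log2 scale (values 8.27, 8.70 and 8.55 against 8.89, 8.94 and 9.01, no overlap, adjusted p = 0.357). SIRT5 had 6.21, 6.46 and 6.24 in estrogen plus progesterone animals and 6.74, 7.11 and 6.95 in progesterone animals on 1 of its 2 probe sets, without overlap, and a difference of -0.63 (adjusted p = 0.411). SIRT7 differed by -0.38 in the same comparison and, between arrays with and without estrogen, by -0.29 (adjusted p = 0.669). The signs of SIRT1, SIRT5 on this probe set and SIRT7 were thus opposite to that of SIRT6 on its first probe set, with none of them past the threshold.

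**Figure D2:**
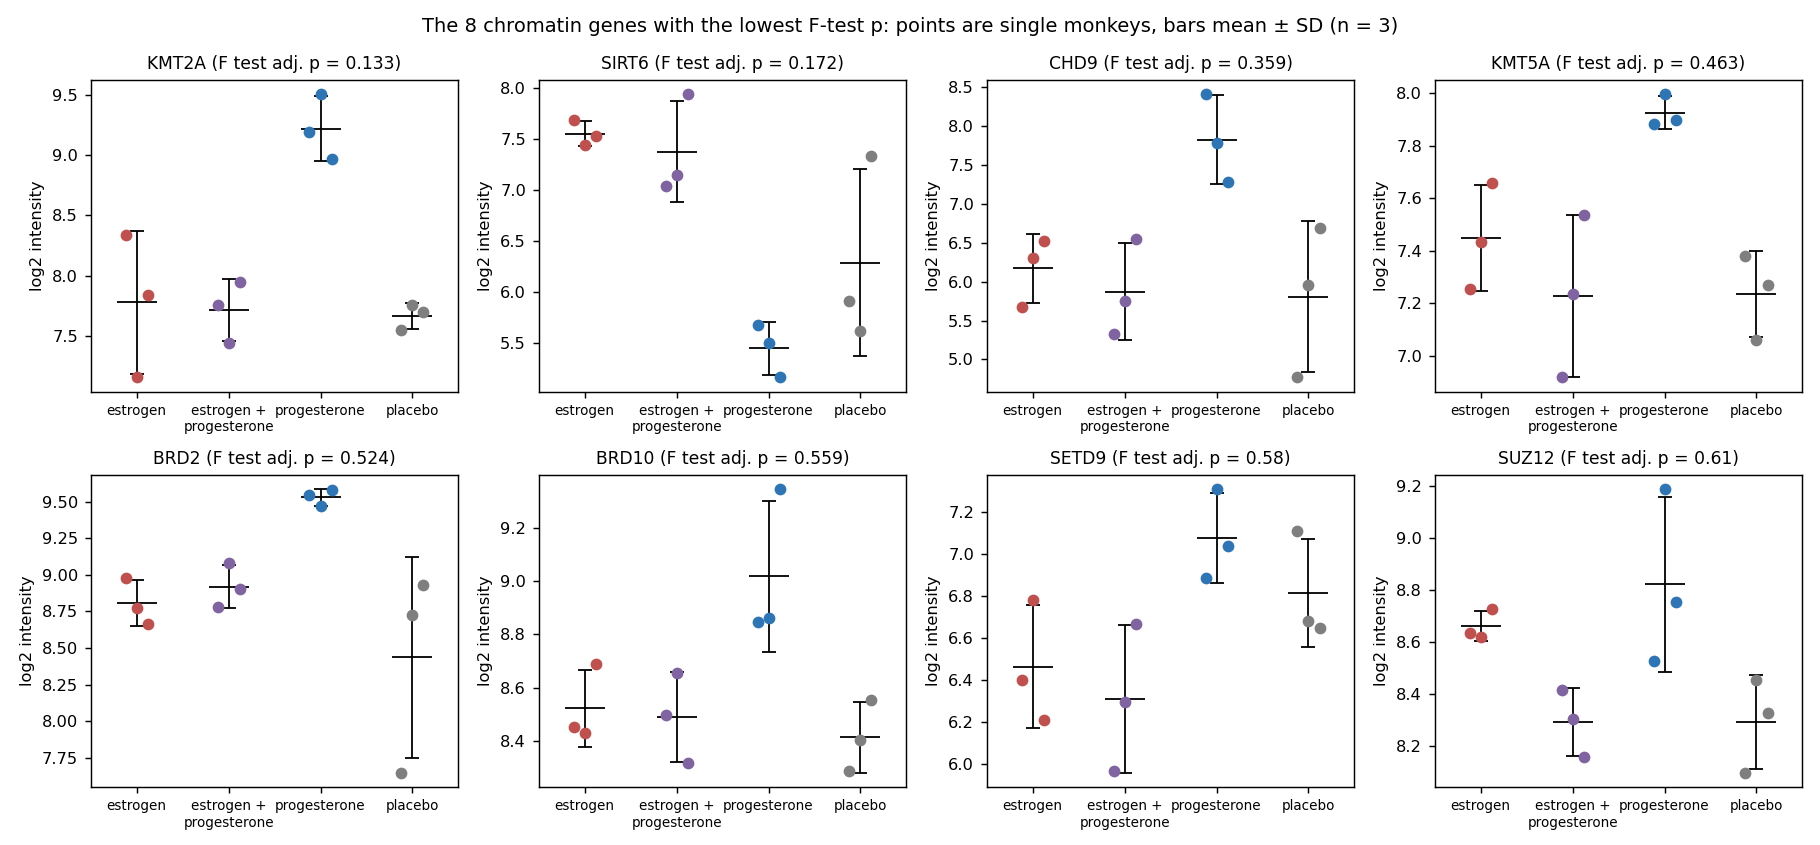
Log2 intensity (vertical axis) by group for the 8 chromatin genes with the lowest F-test p, each on its probe set with the lowest p; points are single monkeys and bars the mean ± SD of 3. KMT2A, CHD9, KMT5A, BRD2 and BRD10 have all 3 progesterone arrays above the other 9, while SIRT6 has its 3 progesterone arrays below the 6 arrays with estrogen.

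Among the writers, KMT2A (also known as MLL) had the lowest p of any chromatin gene in progesterone against placebo. It methylates histone H3 at active promoters and in the mouse is needed for neurogenesis after birth. On the probe set MmugDNA.43023.1.S1_at the log2 intensity was 8.34, 7.16 and 7.84 in estrogen animals, 7.76, 7.44 and 7.95 in estrogen plus progesterone animals, 9.19, 9.51 and 8.96 in progesterone animals and 7.55, 7.76 and 7.70 in placebo animals. The 3 progesterone arrays lay above all 9 others. Progesterone exceeded placebo by 1.55 ± 0.27 (2.93-fold, 95% interval 0.97 to 2.14, unadjusted p = 9.98e-05, adjusted p = 0.0565), and estrogen plus progesterone differed from progesterone by -1.5 ± 0.27 (-2.09 to -0.92, adjusted p = 0.0933). The interaction of both hormones was -1.62 with an adjusted p of 0.608, and the F test had an adjusted p of 0.133.

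KMT2A's value in progesterone against placebo crossed the threshold under some settings: the adjusted p was 0.0186 with an offset of 50 added before taking log2, 0.0415 when only probe sets above the 75th percentile were tested, 0.0267 without the first estrogen array and 0.0297 without the second. Without the first placebo array it was 0.191, and without the 3 arrays that stood apart 0.0989, with a difference of 1.49 in both.

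KMT2A also had more probe sets than any other chromatin gene, 11 in all, of which 8 were tested, and they divided. In progesterone against placebo 3 of the 8 had differences above 1, at 1.55, 1.28 and 1.16, while the other 5 lay between -0.19 and 0.09. The set at 1.16 had 8.91, 9.11 and 9.13 in progesterone animals and 6.79, 8.27 and 8.61 in placebo animals, where the first placebo array was well below the others. The set at 1.28 had 8.42, 7.89 and 7.05 against 5.20, 6.97 and 7.34, and its groups overlapped. The brightest KMT2A probe set had 9.64, 9.31 and 9.37 in progesterone animals and 9.70, 9.65 and 9.56 in placebo animals, a difference of -0.19. Which part of the transcript each probe set reads was not examined here, so the data give no single direction for the gene.

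**Figure D3:**
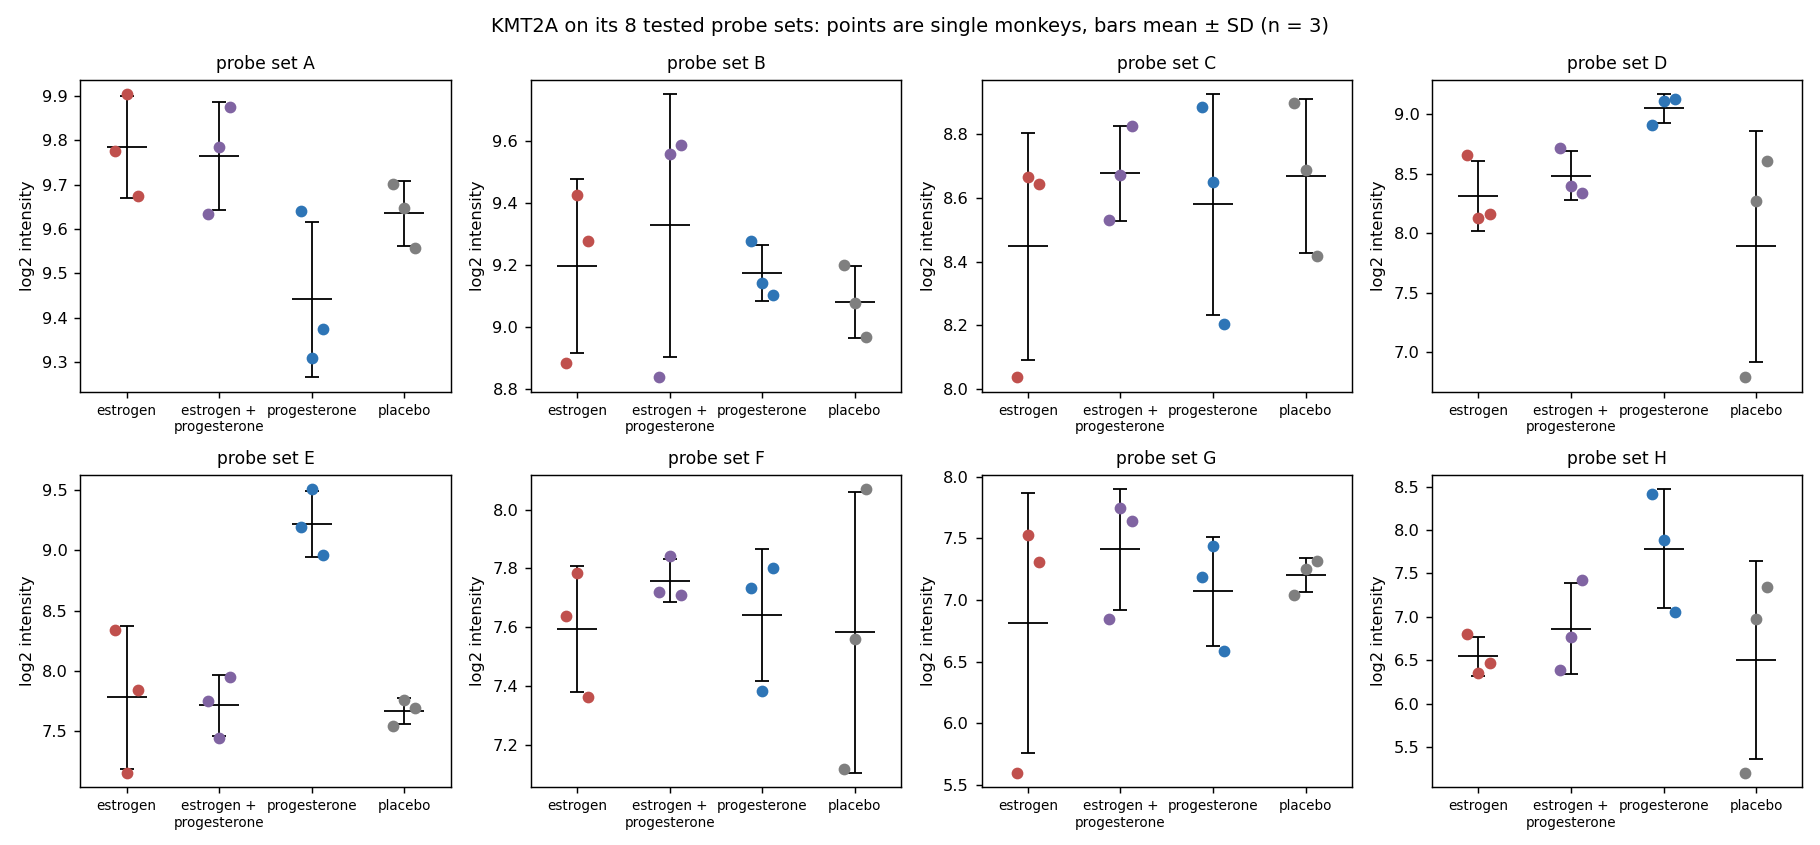
Log2 intensity (vertical axis, a scale of its own in each panel) by group for the 8 tested KMT2A probe sets, ordered A to H from the brightest to the dimmest; points are single monkeys and bars the mean ± SD of 3. In panels D, E and H, with progesterone minus placebo differences of 1.16, 1.55 and 1.28, the progesterone mean is the highest of the 4 groups, while the other 5 panels have differences of -0.19 to 0.09.

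KMT5A, which adds a methyl group to histone H4 and works in the cell cycle and in chromatin compaction, had 7.88, 8.0 and 7.90 in progesterone animals on 1 of its 2 tested probe sets. The estrogen animals had 7.25, 7.43 and 7.66, the estrogen plus progesterone animals 6.92, 7.24 and 7.53, and the placebo animals 7.38, 7.06 and 7.27. All 3 progesterone arrays were above the other 9, by 0.69 ± 0.18 over placebo (adjusted p = 0.222), and estrogen plus progesterone differed from progesterone by -0.70 (adjusted p = 0.205). The second KMT5A probe set differed from placebo by -0.09. KMT2C and KMT2D, which methylate histone H3 at enhancers, gave opposite signs in progesterone against placebo, 1.01 (adjusted p = 0.454) and -0.40 (adjusted p = 0.441). KMT2D had 7.34, 7.55 and 7.68 in progesterone animals, below the 7.89, 7.93 and 7.94 of placebo animals, and its other 2 tested probe sets differed by -0.54 and -0.11.

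Of the Polycomb repressive complex that methylates histone H3 at silenced genes, the core subunits SUZ12 and EED were each read by 1 tested probe set. SUZ12 had 8.64, 8.62 and 8.73 in estrogen animals, 8.42, 8.30 and 8.16 in estrogen plus progesterone animals, 8.53, 9.19 and 8.75 in progesterone animals and 8.10, 8.45 and 8.33 in placebo animals. The arrays of each hormone given alone lay above all placebo arrays, with differences of 0.37 for estrogen (adjusted p = 0.9997) and 0.53 for progesterone (adjusted p = 0.366), whereas the combined group overlapped placebo. EED had 8.33, 8.28 and 8.42 in progesterone animals, above the 7.93, 7.63 and 8.19 of placebo animals (0.43, adjusted p = 0.506). EZH1, a catalytic subunit, had the opposite sign at -0.29 on its brightest probe set (adjusted p = 0.547).

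DNMT3A, which sets up new DNA methylation and is abundant in neurons, had 5.84, 6.61 and 5.99 in estrogen animals and 6.88, 6.81 and 6.40 in placebo animals, on a probe set that was tested only because of the placebo arrays. The difference was -0.55 (unadjusted p = 0.0412, adjusted p = 0.9997) with overlapping groups, and -0.70 on its second tested probe set. DNMT1, which copies DNA methylation after replication, differed from placebo by 0.11, 0.01 and -0.04 in estrogen, estrogen plus progesterone and progesterone animals. KAT5, the acetyltransferase of the TIP60 complex, had 8.36, 8.47 and 8.41 in estrogen plus progesterone animals, above all arrays of the other 3 groups: 7.60, 8.28 and 7.85 in estrogen, 8.25, 7.61 and 7.64 in progesterone and 7.84, 7.93 and 8.25 in placebo animals. The difference was 0.58 against progesterone (adjusted p = 0.351), 0.50 against estrogen and 0.40 against placebo.

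Against placebo, KMT5B had -0.39 in estrogen plus progesterone animals on 1 probe set (adjusted p = 0.9988) but 0.27 in estrogen animals on another, SETDB2 had 0.29 in estrogen animals, and KAT2A had 0.46 in estrogen plus progesterone animals. SETD9 was lower in arrays with estrogen by 0.56 on average (unadjusted p = 0.00461, adjusted p = 0.572), with values of 5.97 to 6.78 in the 6 arrays with estrogen and 6.65 to 7.31 in the 6 without. SETD5 had 0.37 in the same contrast. SETD3, which methylates actin, had 7.91, 7.71 and 7.82 in estrogen plus progesterone animals, below the 8.17, 8.24 and 8.14 of progesterone animals (-0.37, adjusted p = 0.302). SETD6 had 0.56 in estrogen plus progesterone against estrogen, with overlapping groups, and 0.115 without the first estrogen array. KAT7, the brightest KAT probe set, had differences of -0.03 in estrogen and 0.04 in progesterone animals, each against placebo.

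Among the erasers, KDM5A, which removes methyl groups from histone H3 at active promoters, had the largest difference of any chromatin probe set in progesterone against placebo, 2.04 ± 0.76 (adjusted p = 0.410). Its values were 7.99, 7.91 and 7.39 in progesterone animals and 3.56, 6.4 and 7.22 in placebo animals, so the first placebo array carried much of it, and without that array the difference was 0.95. The 9 arrays other than progesterone averaged 6.22, so this probe set too was tested only because of the progesterone arrays. The other KDM5A probe sets had 0.79 and 0.69. KDM4B, a demethylase of histone H3 that is known as an estrogen receptor target, had 8.29, 8.45 and 8.39 in progesterone animals, above the 7.43, 7.96 and 8.15 of placebo animals (0.53, adjusted p = 0.389), and 0.32 without the first placebo array. Its other 3 tested probe sets lay between -0.12 and 0.14.

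KDM3A and KDM3B, both demethylases of repressive histone H3 marks, were lower in progesterone animals on the named probe sets. KDM3A had 7.81, 7.80 and 7.96 in progesterone animals and 8.36, 8.13 and 8.17 in placebo animals, a difference of -0.36 (adjusted p = 0.437), but its other 2 probe sets had 0.50 and 0.17. KDM3B had 8.65, 8.51 and 8.64 against 8.96, 8.92 and 8.88, a difference of -0.32 (adjusted p = 0.459), and -0.29 on its brighter probe set. All tested KDM3B probe sets thus had the same sign, and those of KDM3A did not. KDM5C had -0.25 in estrogen animals and KDM4A 0.39 in estrogen plus progesterone animals, each against placebo and with overlapping groups.

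HDAC2, a class I deacetylase that restrains memory-related genes in the mouse forebrain, had 9.0, 8.98 and 8.81 in estrogen plus progesterone animals. It had 9.24, 9.36 and 9.29 in estrogen, 9.41, 9.34 and 9.33 in progesterone and 9.33, 9.30 and 8.93 in placebo animals. The combined group lay below all arrays of either hormone alone, by 0.37 against estrogen (adjusted p = 0.9999) and 0.43 against progesterone (adjusted p = 0.308), and overlapped placebo. Its second probe set differed by 0.15 from progesterone, in the other direction. HDAC9, a class IIa deacetylase, had 7.67, 7.88 and 7.80 in estrogen plus progesterone animals, below the 8.39, 8.29 and 8.14 of placebo animals (-0.49, adjusted p = 0.9988). HDAC8 had 7.41, 7.45 and 7.52, above the 6.83, 7.25 and 7.19 of placebo animals (0.37, adjusted p = 0.9988). HDAC6, which acts mainly on tubulin in the cytoplasm, had -0.97 in estrogen animals with overlapping groups, and -0.21 without the first estrogen array. That probe set would have fallen below the limit for testing without the placebo arrays or without the estrogen plus progesterone arrays. HDAC5 had -0.28 in estrogen plus progesterone against estrogen, and HDAC11, the brightest HDAC probe set, had 0.26 in arrays with progesterone against those without (adjusted p = 0.799). TET2, which oxidises methylated DNA, had -0.42 in progesterone animals with overlapping groups, and TET3 lay between -0.16 and 0.09 on both tested probe sets in the 3 comparisons with placebo.

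Among the readers, BRD2, a BET protein that binds acetylated histones and helps transcription, had 8.98, 8.78 and 8.67 in estrogen animals on MmugDNA.2865.1.S1_at, 8.78, 9.08 and 8.90 in estrogen plus progesterone animals, 9.54, 9.47 and 9.58 in progesterone animals and 7.65, 8.73 and 8.93 in placebo animals. The progesterone arrays lay above all 9 others and differed among themselves by little. The difference from placebo was 1.09 ± 0.27 (0.50 to 1.69, adjusted p = 0.201), and 0.70 without the first placebo array. A second BRD2 probe set had 1.08 (adjusted p = 0.395), but the other 2 had -0.58 and -0.12, and on the set at -0.58 estrogen plus progesterone exceeded progesterone by 1.18 without overlap (adjusted p = 0.336). The name of the set at 1.08 ends in _s_at, Affymetrix's mark for probes shared by several transcripts, so its signal may mix them.

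BRD3, a second BET protein, had 8.65, 9.27 and 9.17 in progesterone animals, below the 9.56, 9.53 and 9.31 of placebo animals (-0.44, adjusted p = 0.436, and -0.25 without the first progesterone array), on another shared probe set, and 0.23 on its other probe set. BRD10, a bromodomain protein, had 8.85, 8.86 and 9.35 in progesterone animals, above the 8.29 to 8.69 of the other 9 arrays (0.60 over placebo, adjusted p = 0.265), but -0.07 and 0.15 on its other 2 probe sets. BRD7, a subunit of the PBAF remodeling complex, had -0.25, -0.20 and -0.30 against placebo in estrogen, estrogen plus progesterone and progesterone animals, and BRD8 of the TIP60 complex had 0.41 in estrogen animals, all short of the threshold. In estrogen against placebo BRD8 had 0.067 without the first placebo array, and BRD7 -0.099 without the second estrogen array.

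The ING proteins recognise methylated histone H3 and bring acetylases or deacetylases to it. ING4, of the HBO1 acetyltransferase complex, had 7.40, 7.73 and 7.90 in estrogen animals, 7.45, 7.49 and 7.57 in estrogen plus progesterone animals, 7.17, 7.47 and 7.23 in progesterone animals and 7.98, 7.73 and 7.69 in placebo animals. The arrays of both groups with progesterone lay below all placebo arrays, by 0.51 for progesterone alone (adjusted p = 0.332) and 0.29 for the combined group, and the contrast of arrays with and without progesterone was -0.34 (adjusted p = 0.708). ING3, of the TIP60 complex, had differences of 0.37, 0.45 and 0.55 from placebo in estrogen, estrogen plus progesterone and progesterone animals, where the first placebo array (6.98) was below the other 11. ING2, of the SIN3 deacetylase complex, was lower by 0.43 in estrogen plus progesterone than in progesterone animals without overlap (adjusted p = 0.414), ING5 was higher by 0.43 with overlap, and ING1 had 0.06, 0.05 and 0.05 against placebo on its brightest probe set in estrogen, estrogen plus progesterone and progesterone animals, but -0.24 in progesterone animals on another.

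Among the remodelers, CHD9, a chromodomain helicase, had 5.68, 6.31 and 6.53 in estrogen animals on MmugDNA.25576.1.S1_at, 5.32, 5.75 and 6.55 in estrogen plus progesterone animals, 8.42, 7.79 and 7.28 in progesterone animals and 4.77, 5.96 and 6.70 in placebo animals. The 3 progesterone arrays lay above all 9 others, 2.02 ± 0.48 over placebo (4.05-fold, 0.97 to 3.06, adjusted p = 0.172), and estrogen plus progesterone differed from progesterone by -1.95 (adjusted p = 0.185). The 9 other arrays averaged 5.95, below the limit of 6.31, so this probe set was tested only because of the progesterone arrays and its differences are a description. Without the first placebo array the difference from placebo was 1.5. A second CHD9 probe set had 1.34 ± 0.34 over placebo (adjusted p = 0.212) and -1.15 in estrogen plus progesterone against progesterone. The third and brightest CHD9 probe set had 10.27, 10.28 and 10.16 in progesterone animals and 9.83, 10.17 and 10.48 in placebo animals, a difference of 0.08.

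CHD8, a repressor of Wnt target genes, had 9.54, 9.37 and 9.55 in estrogen animals, 8.94, 9.19 and 9.04 in estrogen plus progesterone animals and 8.91, 9.34 and 8.94 in placebo animals. Estrogen alone lay above both of these other groups, by 0.42 over placebo (unadjusted p = 0.0302, adjusted p = 0.9997), and the combined group was 0.43 below it (adjusted p = 0.9999). A second CHD8 probe set was also tested, and over the 12 arrays its correlation with the first was 0.22. CHD7, which acts in neural progenitors, had 8.54, 8.37 and 8.30 in estrogen plus progesterone animals, above the 7.72, 7.66 and 8.25 of placebo animals (0.53, adjusted p = 0.9988), while its other 2 probe sets had 0.70 and -0.17. CHD6 had 0.37 in estrogen plus progesterone against progesterone without overlap (adjusted p = 0.351), and its 4 tested probe sets differed in sign. CHD5, a neuronal remodeler, had an interaction of 0.59 (adjusted p = 0.828).

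SMARCA2, the ATPase also known as BRM that drives the BAF complex, was the brightest of the SMARC probe sets. It had 11.58, 11.45 and 11.67 in estrogen plus progesterone animals and 10.95, 10.55 and 11.41 in progesterone animals (0.60, no overlap, adjusted p = 0.323). Without the second progesterone array this difference was 0.39. The contrast of arrays with and without estrogen was 0.40 (adjusted p = 0.608). In progesterone against placebo this probe set had -0.37, and the other tested SMARCA2 probe sets had -0.38, -0.10, -0.22 and -0.18. SMARCD1, a BAF subunit, had 7.80, 7.38 and 7.11 in progesterone animals and 8.03, 8.37 and 7.65 in placebo animals (-0.59, adjusted p = 0.458), with overlap, and -0.16 on its other tested probe set. SMARCD3 had 0.30 in estrogen plus progesterone against placebo, and SMARCC1 had -0.46 there on its probe set with the lowest p, out of several tested. SMARCC2 had 1.39 in estrogen plus progesterone against estrogen on a dim probe set (7.60, 7.10 and 6.81 against 5.62, 6.28 and 5.47, adjusted p = 0.9999). This SMARCC2 probe set was tested only because of the estrogen plus progesterone arrays.

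ARID4B, a subunit of the SIN3 deacetylase complex, had 7.63, 7.63 and 7.34 in progesterone animals, above the 6.25, 6.68 and 7.13 of placebo animals (0.85, adjusted p = 0.263). The estrogen and the estrogen plus progesterone arrays overlapped both groups, and the brighter ARID4B probe set had 0.01. ARID2 of the PBAF complex had -0.44 in progesterone animals on its dimmest probe set (-0.096 without the third progesterone array) but 0.35 and 0.21 on the other 2, and ARID3A had -0.13 in estrogen animals, each against placebo. ARID5B, a partner of a histone demethylase, had -0.45 in estrogen plus progesterone against progesterone, with overlap. ARID1A, the brightest ARID probe set, had 0.17, 0.30 and 0.03 in estrogen, estrogen plus progesterone and progesterone animals against placebo.

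**Figure D4:**
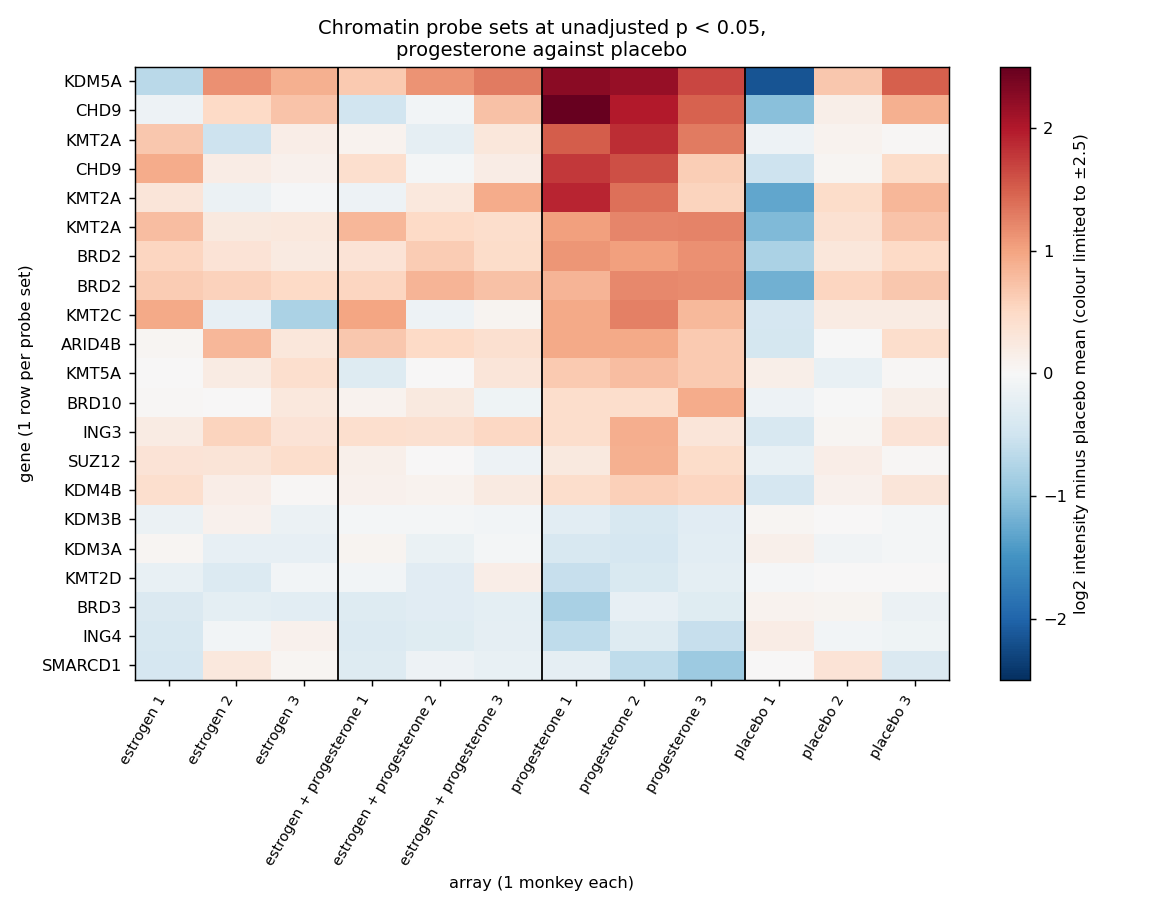
Log2 intensity minus the placebo mean (colour, limited to ±2.5) of the 21 chromatin probe sets with an unadjusted p under 0.05 in progesterone against placebo, 1 row each, over the 12 arrays (horizontal axis). The first placebo array is blue in most of the upper 15 rows, and in several of these rows the estrogen and estrogen plus progesterone arrays are also above the placebo mean.

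The same chromatin genes can be followed through the comparisons that hold 1 hormone fixed. In estrogen plus progesterone against progesterone 8 probe sets were higher and 14 lower at an unadjusted p of 0.05 (4.68% and 8.19%, against 6.03% and 5.37% of all). In estrogen plus progesterone against estrogen 2 were higher and 3 lower (1.17% and 1.75%, against 1.35% and 1.63%). Arrays with estrogen against those without gave 8 higher and 6 lower (4.68% and 3.51%, against 3.81% and 3.82%). Arrays with progesterone against those without gave 12 higher and 3 lower (7.02% and 1.75%, against 3.16% and 3.1%), the interaction 3 above and 13 below 0 (1.75% and 7.6%, against 3.18% and 3.21%), and the F test 11 probe sets of 10 genes (6.43%, against 7.54%). Among the probe sets counted are those of SIRT6, CHD9 and KDM5A that reached the limit for testing only through the arrays where they were high. The counts are therefore a description.

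An interaction value below 0 means that the combination was lower than the sum of both single-hormone differences from placebo. The 13 such values at an unadjusted p of 0.05 include CHD9 at -2.32, KMT2A at -1.62, BRD2 at -0.98, KMT5A at -0.91, SUZ12 at -0.90, BRD10 at -0.64, KDM4B at -0.59, CHD8 at -0.58 and HDAC2 at -0.54, with adjusted p from 0.608 to 0.771. The 3 above 0 were DNMT3A at 0.82, KMT2D at 0.54 and EZH1 at 0.45. This CHD9 probe set was tested only because of the progesterone arrays, and this DNMT3A probe set only because of the placebo arrays. Their interaction values are therefore a description. Since the progesterone arrays enter progesterone against placebo, estrogen plus progesterone against progesterone and the interaction, these values are not independent of one another.

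Counts of probe sets whose 3 arrays lay entirely outside those of the other group were also taken. In estrogen against placebo 11 chromatin probe sets lay above and 4 below (6.43% and 2.34%, against 3.56% and 3.98% of all), and in estrogen plus progesterone against placebo 13 above and 10 below (7.6% and 5.85%, against 4.68% and 5.84%). For progesterone against placebo 23 probe sets of 18 genes lay above and 10 below (13.5% and 5.85%, against 7.41% and 7.86%). In estrogen plus progesterone against progesterone 17 lay above and 20 below (9.94% and 11.7%, against 8.4% and 8.6%). These counts include probe sets of SIRT6, CHD9 and KDM5A that reached the limit for testing only through the arrays where they were high. The counts are therefore a description. For 1 gene on its own, an exact permutation test of 3 arrays against 3 cannot give a p under 0.1.

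Probe sets of the same chromatin gene often disagreed. Among 49 genes with 2 or more tested probe sets, 142 pairs had a median correlation of 0.13 over the 12 arrays, and 21.1% of pairs exceeded 0.5, where over 3769 genes of the whole array the median was 0.20 and the share 23.7%. In progesterone against placebo 18 of the 49 genes (36.7%) had all their probe sets on the same side of 0, against 47.5% of all genes, and in estrogen plus progesterone against progesterone 15 of 49 (30.6%), against 49.1%. The shares were 42.9% and 40.8% in estrogen and in estrogen plus progesterone against placebo, against 45.8% and 45.3%. The spread within groups was a median SD of 0.27 for chromatin probe sets and 0.28 for all.

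Partner genes of the same complexes that the symbol rule does not take in were followed from 13 lists of complexes and enzyme groups. They comprised 75 genes on 141 tested probe sets, and 0 passed the adjusted threshold in any of the contrasts. Between progesterone and placebo 59 were higher and 82 lower (41.8% higher, against 46.7% of all tested). At an unadjusted p of 0.05 there were 9 higher and 5 lower (6.38% and 3.55%, against 4.74% and 5.14%), which is near the background. RSF1, which pairs with an ISWI remodeler, was taken on its probe set with the lowest p. It had 8.84, 8.49 and 8.60 in progesterone animals and 7.18, 7.0 and 7.63 in placebo animals (1.37 ± 0.27, adjusted p = 0.0936). Other RSF1 probe sets were also tested. Between arrays with and without estrogen this set had -0.73 and another RSF1 set 0.25. The acetyltransferases EP300 and CREBBP, coactivators of steroid receptors, were lower on the probe sets with the lowest p, by 0.84 (7.64, 7.37 and 7.88 against 8.59, 8.58 and 8.23, adjusted p = 0.142) and by 1.04 (6.64, 6.16 and 4.85 against 6.79, 6.82 and 7.16, adjusted p = 0.373). NCOA3, another steroid receptor coactivator, had the opposite sign on its probe set with the lowest p, with 8.56, 8.30 and 8.27 in progesterone animals and 6.88, 7.98 and 7.95 in placebo animals (0.78, adjusted p = 0.332). BPTF, a subunit of the NURF remodeler, had 1.68 (9.16, 8.95 and 8.80 against 5.78, 7.75 and 8.36, adjusted p = 0.266), with the first placebo array far below the others.

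By complex, each gene on its brightest probe set, progesterone against placebo gave 9 higher and 14 lower of 23 tested genes of the BAF and PBAF remodelers, 5 and 8 of 13 in the COMPASS methyltransferases, 4 and 3 of 7 in Polycomb repressive complex PRC2, and 6 and 10 of 16 in the TIP60 acetyltransferase complex. The MOZ and HBO1 acetyltransferases had 2 higher and 8 lower of 10 and CoREST 2 and 8 of 10. SIN3 had 9 and 7 of 16, NuRD 5 and 4 of 9, ISWI 3 and 3 of 6 and NCoR and SMRT 3 and 1 of 4. The sirtuins had 4 and 1 of 5, the BET proteins 1 and 1 of 2, and the acetyltransferases without a KAT symbol 1 and 5 of 6. Over the 13 lists the medians ran from -0.13 in MOZ and HBO1 to 0.16 in the sirtuins, beside -0.02 for all probe sets. With 0 probe sets called in each list, these counts describe the direction of the point estimates only.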

How the data were processed

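RNA of 12 monkeys was measured on 12 arrays, and groups and replicate numbers came from the labels. The authors deposited intensity on a linear scale, 1 value per probe set. In the values themselves, the mean of each array without the lowest and highest 2% was 200.0. The software behind these values was not stated in the labels or headers. Of 52865 probe sets 99 controls were removed. Intensities below the 5th percentile (4.99) were raised to it, then log2 transformed and quantile normalized, and the 26383 probe sets with a mean log2 of at least 6.31 (intensity 79.5) were tested.

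All 12 arrays were fitted with 1 mean per group in limma 3.58.1 (lmFit, eBayes; R 4.3.3; 8 residual and 3.54 prior degrees of freedom), two-sided, with Benjamini-Hochberg adjustment over all tested probe sets. SE are those of the fit. The fit was tested on simulated data. The main effects compare 6 arrays with and 6 without a hormone, and the interaction is the estrogen difference under progesterone minus that without it. Symbols came from the platform's probe table; 2 probe sets with several symbols were left out. Figures used Python 3.11.15 and matplotlib 3.10.9.

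Named were SIRT6, the 3 lowest p per role and direction in each comparison with placebo, the 2 lowest in each other contrast, the 8 lowest in the F test and the brightest probe set of each family, 60 genes in all. Other values were added after they were seen, such as further probe sets of these genes and partners with low p. The members and lists were chosen with earlier results of these data known.

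Deviations of same-numbered arrays from their group means correlated by 0.142 to 0.507 between estrogen plus progesterone and estrogen and by 0.103 to 0.274 between estrogen plus progesterone and placebo. Arrays with different numbers had -0.408 to 0.267 and -0.254 to 0.115 in the same pairs of groups. These ranges overlap, so the correlations do not establish a pairing by number. Both same-number ranges exceeded 0.1, the limit set for pairing, but the labels name no shared batch. The reported fit had no term for the replicate number, so its p-values and SE are unpaired. A fit with that term was run only as an alternative. The other pairs of groups did not all exceed 0.1: estrogen and placebo had 0.024 to 0.277, and progesterone had -0.156 to 0.030 with estrogen, -0.260 to -0.080 with estrogen plus progesterone and -0.244 to -0.105 with placebo. Progesterone thus did not reach that limit with any group. Other alternatives changed the scaling, filter, floor, offset, probe set choice and arrays used.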

Additional observations from a re-analysis of the deposited data

How the results depend on the processing

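The count of chromatin probe sets past the threshold was 0 in all 9 tests, and 22 other settings were run. With an offset of 50 it was 1 (KMT2A) in progesterone against placebo, in estrogen plus progesterone against progesterone and in the F test, and with the filter at the 75th percentile it was 1 (KMT2A) in progesterone against placebo. Leaving out single arrays gave 0 to 1 in progesterone against placebo, 0 to 1 in estrogen plus progesterone against progesterone, 0 to 1 in the estrogen main effect and 0 to 1 in the F test. The single calls were KMT2A without the first or second estrogen array and SIRT6 without the third placebo array. That SIRT6 probe set was tested only because of the arrays with estrogen, so its call is a description. With the replicate number as a block the count stayed 0 in every contrast, and KMT2A in progesterone against placebo had 1.55 (adjusted p = 0.0979). Of 152 named values, none past the threshold, 68 moved by over 1.5 times when a single array was left out, most often the first placebo array, and 147 kept their sign in all settings. The other 5 turned only when particular arrays were left out. In estrogen against placebo BRD2 on a shared probe set ran from -0.026 (without the first placebo array) to 0.91 over the single arrays left out. ING4 ran from -0.23 to 0.018 and CHD6 from -0.65 to 0.13, both turning without the first estrogen array. Without the 3 arrays that stood apart, an alternative chosen after seeing the data, they were -0.058, 0.11 and 0.083. In estrogen plus progesterone against placebo KMT2A on a second probe set turned to -0.073 and CHD6 on a shared one to 0.19 without those 3. The cause was not tested. At an unadjusted p of 0.05 the count of higher chromatin probe sets in progesterone against placebo ran from 5 of 88 (brightest probe set of each gene) to 21 of 171 (without the third placebo array). The denominators differ. Shares over all probe sets are not given beside these counts or the calls above, so neither is read as a result about chromatin genes. Median alignment moved the share of higher chromatin probe sets to 38% in estrogen plus progesterone against estrogen (55% before). In the progesterone main effect it moved to 38% (51.5% before). The shares over all probe sets moved the same way, to 39.6% (49.9% before) and to 30.8% (47% before), so the shift was not particular to the chromatin genes.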
